A study of Arabidopsis thaliana with 6 samples.

Results

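The Aux/IAA, ARF and TIR1/AFB genes of Arabidopsis thaliana form the nuclear auxin signalling pathway. They were taken by locus as a fixed list of 48 genes, 28 Aux/IAA genes, 15 ARF genes and the 5 receptor genes TIR1, AFB1, AFB2, AFB3 and AFB5, and all 48 were found among the 37869 genes of the deposited table. Together they have 141 of the 76209 transcripts listed. The rule goes by gene name and locus, and the list was drawn up with earlier results of these data known.

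Auxin is perceived by the F-box proteins TIR1 and AFB, each of which is the substrate-binding part of an SCF ubiquitin ligase. In the presence of auxin the receptor binds the degron of an Aux/IAA repressor, which is then ubiquitinated and destroyed, and the ARF transcription factors that the repressor had held are released. Most Aux/IAA genes are themselves early auxin-responsive genes, and some ARF and receptor transcripts are cut or silenced by small RNAs. In shoots the pathway is known for its part in leaf formation, vein patterning, stem and hypocotyl growth and responses to shade.

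The mutant sme1 (sme1-1, written smeb-1 in the sample labels) has a lesion in SME1, the gene AT2G18740 for the core spliceosome protein SmE, and is in the Col-0 background. It was compared with wild-type Col-0, 3 libraries each. In both groups shoots were harvested from seedlings 3 weeks old, grown unstressed on agar with 1% sucrose at 21 °C in days of 16 h light and 8 h dark, and mRNA was read in pairs of 150 bp with a stranded kit. The library titles write KO for the mutant, and the labels give no further detail of the lesion. The labels do not say whether libraries come from separately grown plants. The p-values here therefore reflect only how the libraries of a group differ, and that may be technical.

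SME1 itself was at 36.1, 31.6 and 29.7 TPM (a measure of transcript abundance scaled for transcript length and to the same total in every library) in sme1 and at 76.9, 73.9 and 75.3 TPM in wild type, so no library went against its label, and transcripts of SME1 were still present in the mutant. TPM keep no read numbers, so the depth behind each value is unknown. Among the 20100 genes whose mean reached 1 TPM the median was higher in sme1 by 0.22 on the log2(TPM + 1) scale. Changes were therefore also computed on rescaled values, each library divided by the median ratio of its genes to their geometric means, and on quantile-normalized values.

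The tissue label was checked on marker genes. The 6 leaf markers summed to between 34695 and 39382 TPM in sme1 and between 40268 and 42519 TPM in wild type. Of these 1 was called higher and 3 lower (0 and 5 after rescaling, 2 and 2 after quantile normalization). All 8 root markers tested were called higher in sme1 (7 after either other scaling). The 9 root markers summed to between 27.7 and 57.6 TPM in sme1 and between 1.41 and 4.10 TPM in wild type, with sme1 replicate 1 highest, and none was at 0 in any library. Of 4 tested shoot meristem markers 3 were higher, STM, KNAT1 and KNAT2, and CLV1 was not called (-0.02, and called lower after rescaling or quantile normalization). WUS was listed at 0 in 1 library of each genotype, and CLV3 in sme1 replicates 1 and 2. Of 6 vascular markers 4 were higher and 0 lower (2 and 2 after rescaling, 1 and 1 after quantile normalization). Of 3 tested floral organ markers 1 was higher, SEP3, which lost its call after quantile normalization (0.06). Their part in the results on auxin genes was not tested. In such bulk samples fewer cells of a type and less RNA per cell cannot be told apart.

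The degron is the stretch by which an Aux/IAA protein meets its receptor. Its core, the residues Gly-Trp-Pro-Pro, was found in frame in the RefSeq coding sequences of 22 of the 28 Aux/IAA genes. The codons of the core, in capitals, are shown with their flanks for IAA28, which rose, and for IAA19, IAA29 and IAA7, which fell, on the RefSeq assembly TAIR10.1.
IAA28 (chr5:9033812-9033841, plus strand): ccagtggtgGGATGGCCGCCGgtgagatca
IAA19 (chr3:5264307-5264336, plus strand): caggtggtgGGGTGGCCACCGgtttgttct
IAA29 (chr4:15583942-15583971, plus strand): gaagttgttGGATGGCCACCAgtaaaaaca
IAA7 (chr3:8195568-8195597, plus strand): caagtggtgGGATGGCCACCTgtgaggaac
The 6 genes without the core, IAA20, IAA30, IAA31, IAA32, IAA33 and IAA34, were together with IAA5 the lowest of the family. Their means over all 6 libraries lay between 0.158 and 2.32 TPM, against 1.64 to 248.7 TPM for the 22 genes with it. Of these 6 only IAA30 and IAA34 passed the filter of 1 TPM. IAA30 had a log2 change of -0.42 (limma adjusted p = 0.0754) and IAA34 of -0.47 (limma adjusted p = 0.0862), and both passed as lower after either other scaling.

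Several ARF and receptor mRNAs hold sites for small RNAs. The sites are shown because genes sharing a miR167, miR393 or TAS3A site differed in how their levels changed. Genes with a miR160 site all rose. The small RNAs, with the seed (bases 2 to 8) in capitals, were read from the RefSeq annotation, except the TAS3A window. That window is the 21 bases of the TAS3A transcript that pair best with ARF3 and ARF4, the last where windows tied. Its ends were set by pairing alone, so the bases marked as its seed may not be those of the small RNA made.
miR160a: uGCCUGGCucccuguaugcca
miR167a: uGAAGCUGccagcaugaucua
miR393a: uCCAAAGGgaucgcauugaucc
TAS3A window: uUUCUUGAccuuguaagaccc
The best site of each in the member mRNAs follows with the bases opposite the seed in capitals. All lie in coding sequence and have a mismatch score of at most 4, where an unpaired base counts 1 and a G:U pair 0.5.
ARF17, miR160a (chr1:29274189-29274209, plus strand): uggcaugcagggaGCCAGGCa
ARF10, miR160a (chr2:12115741-12115761, plus strand): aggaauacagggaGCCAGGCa
ARF16, miR160a (chr4:14704141-14704161, minus strand): ggguuuacagggaGCCAGGCa
ARF8, miR167a (chr5:14633841-14633861, plus strand): uagaucaggcuggCAGCUUGu
ARF6, miR167a (chr1:10686478-10686498, minus strand): gagaucaggcuggCAGCUUGu
ARF3, TAS3A (chr2:14325941-14325961, minus strand): gggucuugcaaggUCAAGAAa
ARF4, TAS3A (chr5:24309507-24309527, minus strand): gggucuugcaaggUCAAGAAa
ARF2, TAS3A (chr5:24913262-24913282, plus strand): gggucuugcaaggUCAAGAAu
AFB3, miR393a (chr1:4369085-4369106, minus strand): gaaacaaugcgaucCCUUUGGa
AFB2, miR393a (chr3:9870237-9870258, plus strand): gaaacaaugcgaucCCUUUGGa
TIR1, miR393a (chr3:23273727-23273748, minus strand): gagacaaugcgaucCCUUUGGa
AFB1, miR393a (chr4:1405341-1405362, minus strand): gagaccaugcgaucCCUUUGGa
A match of letters is not a measured site of cleavage.

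Of the 48 genes, 44 passed the filter of 1 TPM on their mean, and IAA20, IAA31, IAA32 and IAA33 did not. Among the 44, 17 rose and 13 fell in sme1 (limma adjusted p under 0.05, Benjamini-Hochberg over all 20100 genes). Of all genes tested 67.3% were called, 47.3% higher and 20% lower. The median log2 change of the 44 was 0.01, against 0.22 over all genes. After rescaling 9 members were higher and 23 lower (67.1% of all genes were called, 33.9% higher and 33.2% lower), and after quantile normalization 11 and 21 (66.7% of all genes, 30.4% higher and 36.3% lower). In all 3 scalings 9 genes were called higher and 13 lower. In 32 of the 44 genes the libraries of sme1 and wild type did not overlap, as in 73.5% of all genes.

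**Figure D1:**
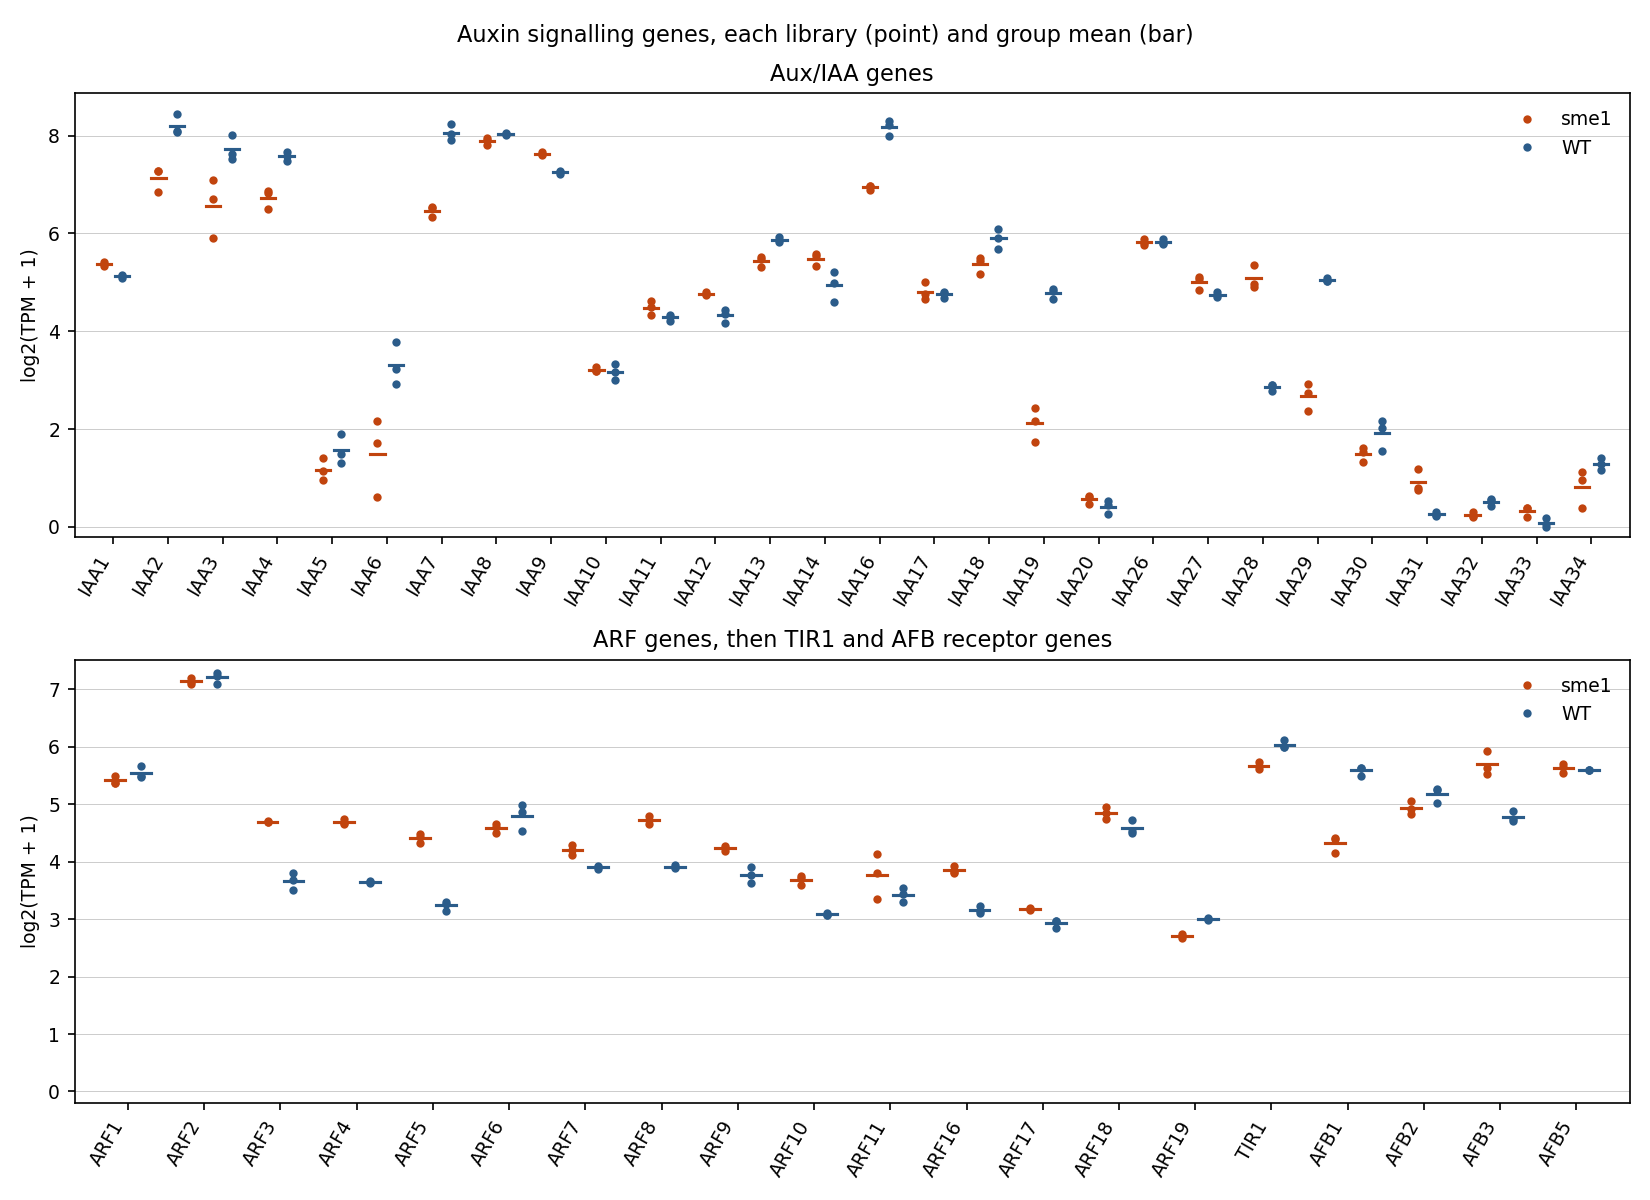
Level of each auxin signalling gene as log2(TPM + 1), with a point per library and a bar for the group mean, sme1 left of wild type in each pair (n = 3 each). IAA19 and IAA29 lie far lower in sme1, IAA28 lies far higher, and the ARF genes shift less.

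The counts are given by family, and a difference between families was not tested. Of all genes tested 47.3% rose and 20% fell (33.9% and 33.2% after rescaling, 30.4% and 36.3% after quantile normalization). Of 24 tested Aux/IAA genes 6 rose and 10 fell (2 and 15 after rescaling, 4 and 15 after quantile normalization). Their median log2 change was -0.41. Of 15 ARF genes 10 rose and 1 fell, ARF19 (6 and 4 after rescaling, 6 and 3 after quantile normalization, and 2 lower without wild-type replicate 3), with a median of 0.34. Of the 5 receptor genes AFB3 rose, and TIR1 and AFB1 fell (1 and 4 after rescaling, 1 and 3 after quantile normalization). Summed over the family, Aux/IAA transcripts came to 1376 ± 93.0 TPM in sme1 and 2084 ± 40.6 TPM in wild type (SD, n = 3 each). ARF transcripts came to 416 ± 4.66 TPM in sme1 and 354 ± 13.5 TPM in wild type, and receptor transcripts to 199 ± 7.80 TPM in sme1 and 221 ± 1.75 TPM in wild type. These sums are of deposited values. Rescaling divides the sme1 libraries by 1.12, 1.06 and 1.09 and the wild-type libraries by 0.932, 0.927 and 0.909. That shift is about as large as the ARF difference.

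Changes of at least 0.8 on the log2 scale that passed the test occurred in 15 members, 6 higher and 9 lower, against 19.0% of all genes higher and 6.67% lower. These 15 kept their calls in all 3 scalings and in each of the 6 fits that left out 1 library.

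**Figure D2:**
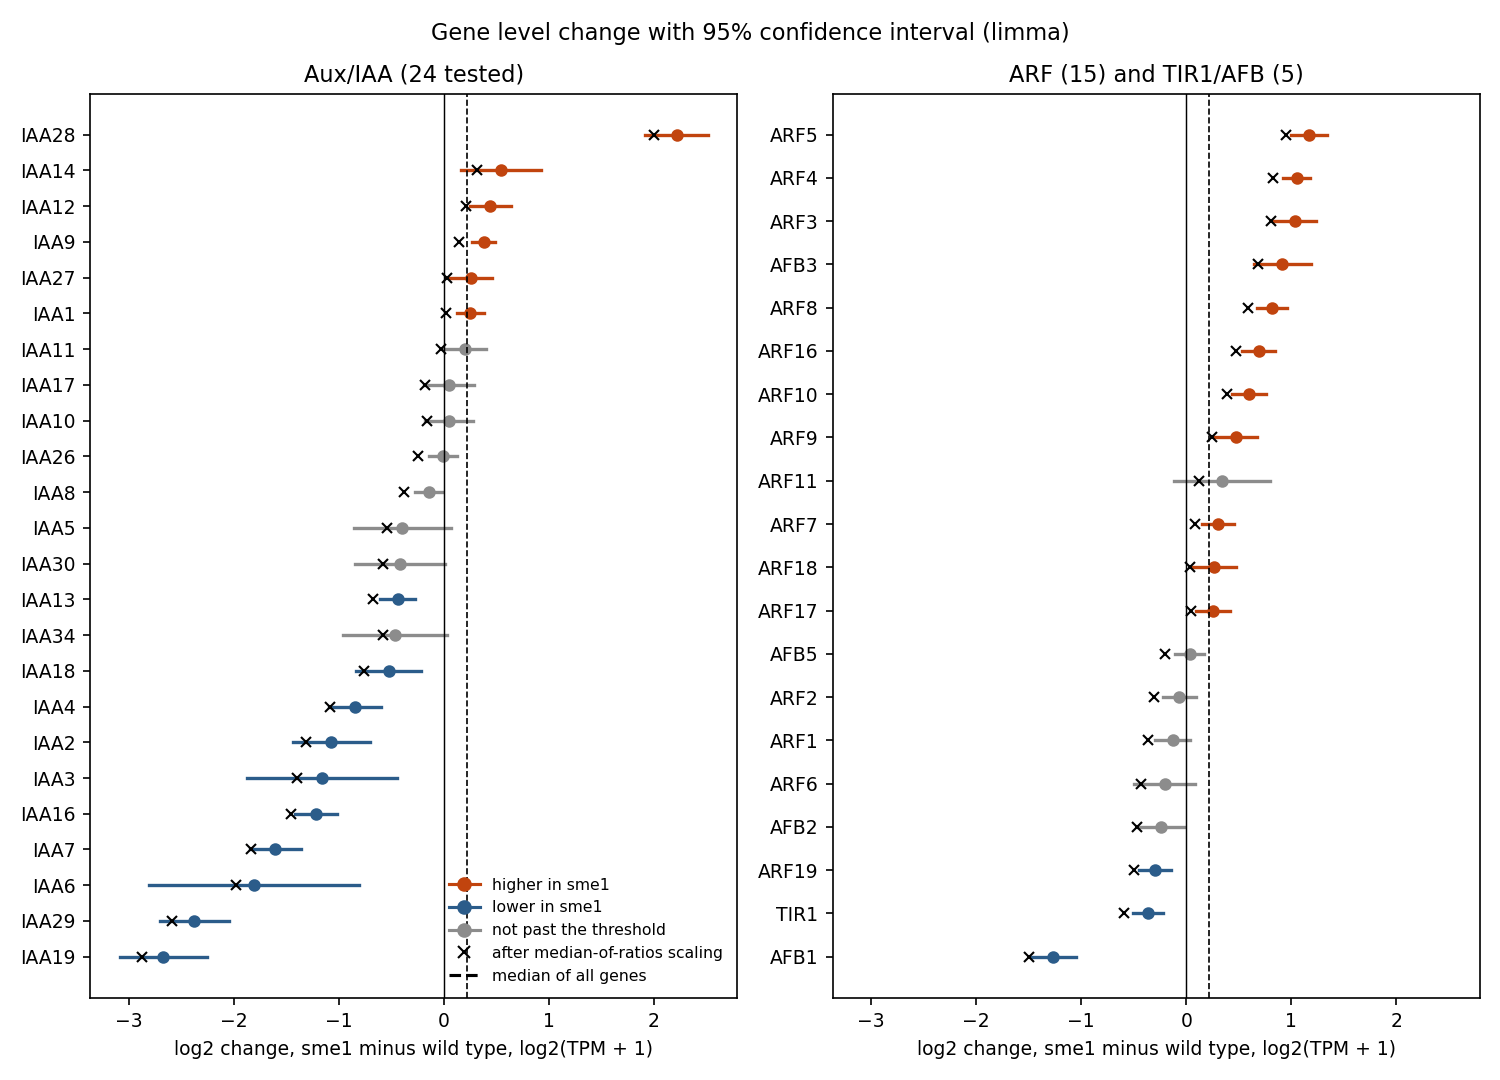
Log2 change, sme1 minus wild type on the log2(TPM + 1) scale, of the 44 members tested, with the limma 95% confidence interval. Crosses give the change after rescaling and the dashed line is the median of all genes, 0.22. Most Aux/IAA genes lie left of that line and ARF3, ARF4, ARF5 and ARF8 lie right of it.

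Among the receptors, TIR1, which gives the receptor family its name, was at 52.3, 49.98 and 47.9 TPM in sme1 and 62.7, 68.5 and 62.9 TPM in wild type. All 3 sme1 libraries lay below all wild-type libraries, and the log2 change was -0.36 ± 0.06 (SE; limma adjusted p = 0.00185). AFB1, a receptor known for the rapid response of roots, had 16.8, 20.1 and 20.4 TPM in sme1 and 48.7, 44.1 and 48.8 TPM in wild type. Here the groups lay far apart, with a log2 change of -1.27 ± 0.09 (limma adjusted p = 5.54e-05). AFB3 stood out in the other direction, at 60.1, 48.8 and 45.0 TPM in sme1 and 25.3, 25.9 and 28.5 TPM in wild type, a log2 change of 0.91 ± 0.11 (limma adjusted p = 0.000455). The lowest sme1 library was above the highest wild-type one, and sme1 replicate 1, which had the most root marker RNA, was the highest. Without that library the change of AFB3 was 0.80 (limma adjusted p = 0.000465). A link to root material was not tested.

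AFB2 was at 32.3, 29.4 and 27.5 TPM in sme1 and 37.0, 37.4 and 31.6 TPM in wild type. The groups overlapped, and its log2 change of -0.24 ± 0.09 missed the threshold (limma adjusted p = 0.0504), passing it after either other scaling. AFB5, which also perceives the synthetic auxin picloram, was at 45.7, 49.0 and 51.0 TPM in sme1 and 47.5, 47.2 and 47.7 TPM in wild type. Its change of 0.03, with a 95% interval of -0.10 to 0.17, did not pass, and it turned to -0.20 after rescaling, where it was called lower (limma adjusted p = 0.0287). In sme1 the levels of AFB3, TIR1 and AFB5 overlapped, AFB2 lay below them and AFB1 was lowest. In wild type TIR1 was highest, AFB1 and AFB5 overlapped below it, and AFB3 was lowest, under AFB2. The site for miR393 shown above for AFB3 has the same letters as the site of AFB2, whose level did not pass the test.

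Among the repressors, IAA19 had the largest fall of the 44 genes on the log2(TPM + 1) scale. IAA19, whose mutant msg2 bends poorly towards light and gravity, lies on chromosome 3 from 5264001 to 5265695. It was at 2.35, 4.43 and 3.47 TPM in sme1 and at 27.3, 28.2 and 24.4 TPM in wild type, 7.79-fold lower by the means. Every sme1 library was far below every wild-type one (log2 change -2.67 ± 0.17, limma adjusted p = 4.35e-05). IAA29, a gene induced by shade and warmth, fell to 4.17, 6.55 and 5.65 TPM in sme1, against 33.1, 31.7 and 31.4 TPM in wild type. The log2 change was -2.38 ± 0.14 (limma adjusted p = 3.11e-05), again with no overlap. IAA6, a close relative of IAA19, was low in both, at 0.521, 2.30 and 3.51 TPM in sme1 and 6.54, 8.31 and 12.8 TPM in wild type. Its libraries varied more, with sme1 replicate 1 the lowest, and the change was -1.81 ± 0.42 (limma adjusted p = 0.0078) and -1.36 without that library.

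The abundant IAA7 and IAA16, paralogues of one clade, fell together. IAA7, known from the auxin-resistant mutant axr2, was at 79.7, 91.5 and 90.4 TPM in sme1 and 303, 262 and 238 TPM in wild type (log2 change -1.60 ± 0.10, limma adjusted p = 4.03e-05). IAA16 was at 118, 125 and 125 TPM in sme1 and 312, 299 and 255 TPM in wild type (-1.22 ± 0.08, limma adjusted p = 5.09e-05). In both genes the sme1 libraries were close to each other and well below wild type. The other members of the clade did not follow. IAA14, known from the solitary root mutant, rose by 0.54 (limma adjusted p = 0.0204), a call lost after rescaling (0.31), after quantile normalization (0.44), and without sme1 replicate 2 or 3 (highest limma adjusted p = 0.0628). IAA17 had a change of 0.05 (limma adjusted p = 0.669).

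In the group of IAA1 to IAA4, 3 genes fell and 1 rose. IAA2 was at 113, 155 and 154 TPM in sme1 and 346, 272 and 269 TPM in wild type (log2 change -1.07 ± 0.15, limma adjusted p = 0.000897). IAA3, known from the photomorphogenic mutant shy2, was at 59.0, 103 and 136 TPM in sme1 and 184, 198 and 258 TPM in wild type (-1.16 ± 0.30, limma adjusted p = 0.0121), and without sme1 replicate 1, the lowest library, its change was -0.83. IAA4 was at 90.2, 115 and 112 TPM in sme1 and 179, 191 and 201 TPM in wild type (-0.85 ± 0.10, limma adjusted p = 0.000449). None of these 3 genes had overlapping groups. IAA1, nearest in sequence to IAA2, had a small rise of 0.25 (limma adjusted p = 0.00467), which was 0.02 once rescaled (limma adjusted p = 0.726).

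IAA28, known from a mutant with few lateral roots, was the member with the largest rise. It lies on chromosome 5 from 9033204 to 9035140 and was at 40.02, 29.0 and 30.4 TPM in sme1 and 6.46, 5.90 and 6.49 TPM in wild type, 5.28-fold higher by the means. The groups did not overlap (log2 change 2.22 ± 0.12, limma adjusted p = 2.95e-05), and sme1 replicate 1, with the most root marker RNA, was again the highest. Without that library the change of IAA28 was 2.08. Among sme1 libraries it was also the highest for AFB3, ARF3, ARF4 and ARF5. It was the lowest for ARF8 and for the 9 members that fell by at least 0.8. A link to root material was not tested. IAA18 and IAA26, relatives of IAA28, did not share the rise. IAA18 fell by 0.53 (limma adjusted p = 0.00996) and IAA26 had a change of -0.01 (limma adjusted p = 0.875), and -0.24 once rescaled (limma adjusted p = 0.0123).

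The remaining Aux/IAA genes moved by less. IAA13 fell by 0.44 and IAA12, known from the bodenlos mutant, rose by 0.44 (limma adjusted p = 0.00144 and 0.00289), though IAA12 lost its call after rescaling (0.21). IAA9, known for its part in leaf form in tomato, rose by 0.38 (0.14 once rescaled and 0.31 after quantile normalization, called in each), at 202, 194 and 196 TPM in sme1 and 155, 152 and 148 TPM in wild type, with no overlap. IAA27 rose by 0.26 (limma adjusted p = 0.0293), a call lost after either other scaling and in 4 of the 6 fits without 1 library (lowest change 0.21, without sme1 replicate 3). IAA8, the most abundant member over all libraries with a mean of 248.7 TPM, had a change of -0.14 (limma adjusted p = 0.0515) although its groups did not overlap. It was called lower after either other scaling (-0.38 and -0.21). IAA5, IAA10 and IAA11 had changes between -0.39 and 0.20 that did not pass. IAA5 was called lower after rescaling (-0.54) and after quantile normalization (-1.01), and IAA10 after quantile normalization (-0.33). Of the 4 genes below the filter, IAA31 was at 0.901 TPM in sme1 and 0.193 TPM in wild type and IAA32 at 0.187 TPM in sme1 and 0.432 TPM in wild type, and neither was tested.

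ARF5, ARF4, ARF3 and ARF8 had the largest rises among the transcription factors. ARF5 (MONOPTEROS), an activator needed for vein formation and organ initiation, was at 21.3, 19.0 and 20.5 TPM in sme1 and 8.67, 7.87 and 8.84 TPM in wild type (log2 change 1.17 ± 0.07, limma adjusted p = 3.89e-05). ARF3 (ETTIN), which with ARF4 shapes the lower side of leaves, was at 25.2, 24.8 and 24.7 TPM in sme1 and 10.4, 11.8 and 12.97 TPM in wild type (1.03 ± 0.08, limma adjusted p = 9.14e-05). ARF4 was at 25.8, 24.7 and 24.3 TPM in sme1 and 11.6, 11.4 and 11.5 TPM in wild type (1.05 ± 0.05, limma adjusted p = 2.46e-05). ARF8, an activator with a part in flower growth, was at 24.3, 26.7 and 25.6 TPM in sme1 and 14.002, 14.4 and 13.8 TPM in wild type (0.82 ± 0.06, limma adjusted p = 5.91e-05). In each of these 4 genes all sme1 libraries were above all wild-type libraries and close to one another.

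Genes that share a small RNA were compared side by side. Of the 3 genes with the TAS3A site ARF3 and ARF4 rose and ARF2, a repressor of growth and the most abundant ARF, had a change of -0.07 (limma adjusted p = 0.397) and -0.30 once rescaled (limma adjusted p = 0.00601). Of the pair with a miR167 site ARF8 rose and ARF6, its partner in flower growth, had a change of -0.20 (limma adjusted p = 0.174). ARF6 was called lower after either other scaling and without wild-type replicate 3, its lowest wild-type library (-0.34, limma adjusted p = 0.0114). All 3 genes with a miR160 site rose, ARF16 by 0.69, ARF10 by 0.60 and ARF17 by 0.25 (limma adjusted p = 0.000167, 0.000313 and 0.013), and ARF17 lost its call after either other scaling. TAS3A itself rose by 0.51 (limma adjusted p = 0.00788), a call lost after rescaling. TAS3B rose by 1.25 (limma adjusted p = 0.000257), and by 0.63 after quantile normalization. It was at 1.99, 2.65 and 2.82 TPM in sme1 and near the floor in wild type, at 0.368, 0.559 and 0.461 TPM. Its mean of 1.47 TPM passed the filter of 1 TPM only through the sme1 libraries. The precursor genes listed for miR160, miR167 and miR393 were absent from the deposited gene values.

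Of the other ARF genes, ARF19 fell by 0.30 (limma adjusted p = 0.0058), while ARF7, which acts with it in lateral root formation and phototropism, rose by 0.30 (limma adjusted p = 0.00495). ARF19 was at 5.52, 5.35 and 5.72 TPM in sme1 and 6.94, 7.01 and 7.11 TPM in wild type, and ARF7 at 18.6, 16.5 and 17.5 TPM in sme1 and 14.2, 14.05 and 13.7 TPM in wild type. Neither gene's groups overlapped, and ARF7 lost its call after either other scaling (0.08 in both). ARF9 rose by 0.47 and ARF18 by 0.27 (limma adjusted p = 0.00248 and 0.0279), both calls lost after either other scaling and that of ARF18 also without sme1 replicate 1 or 3 or wild-type replicate 1 or 3 (0.21, 0.27, 0.23 and 0.24). ARF1 and ARF11 had changes of -0.13 and 0.34 that did not pass (limma adjusted p = 0.142 and 0.156), though ARF1 was called lower after rescaling (-0.36) and after quantile normalization (-0.22). Without sme1 replicate 1, its lowest sme1 library, ARF11 had a change of 0.54 (limma adjusted p = 0.0115).

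The promoters of IAA19, IAA29 and IAA28, the members with the largest changes, are shown as the 250 bases before the RefSeq gene start (TAIR10.1). Capitals mark the auxin response element TGTCTC and the G-box CACGTG. The higher-affinity ARF motif TGTCGG was also searched, all on both strands, and no motif overlaps another.
IAA19 (chr3:5263751-5264000, plus strand): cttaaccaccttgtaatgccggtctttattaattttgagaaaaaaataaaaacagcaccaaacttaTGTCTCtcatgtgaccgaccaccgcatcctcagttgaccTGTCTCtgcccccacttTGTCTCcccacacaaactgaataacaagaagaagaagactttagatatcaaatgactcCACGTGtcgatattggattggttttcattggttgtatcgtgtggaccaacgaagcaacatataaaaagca
IAA29 (chr4:15583082-15583331, plus strand): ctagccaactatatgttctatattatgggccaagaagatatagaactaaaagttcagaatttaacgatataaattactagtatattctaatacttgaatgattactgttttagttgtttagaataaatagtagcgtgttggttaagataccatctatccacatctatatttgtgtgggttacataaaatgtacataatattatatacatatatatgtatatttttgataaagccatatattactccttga
IAA28 (chr5:9032954-9033203, plus strand): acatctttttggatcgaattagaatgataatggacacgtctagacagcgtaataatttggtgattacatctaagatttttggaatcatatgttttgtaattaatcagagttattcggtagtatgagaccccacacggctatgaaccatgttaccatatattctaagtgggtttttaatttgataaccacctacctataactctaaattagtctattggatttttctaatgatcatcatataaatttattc
IAA19 holds 3 copies of TGTCTC, while the windows of IAA29 and IAA28 hold none of the motifs. TGTCTC occurred in 9 of the 28 Aux/IAA promoters (32.1%) and in 1 of the 15 ARF promoters, ARF3, against 10.9% of 27443 promoters of protein-coding genes of the same length. TGTCGG occurred in 6 Aux/IAA promoters (21.4%, against 4.16% of all) and CACGTG in 4 (14.3%, against 6.49%). Of the 10 Aux/IAA genes that fell 2 hold TGTCTC, IAA6 and IAA19, and of the other 18 genes 7 do.

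The 141 transcripts comprise 94 from Araport11 and 47 assembled by the authors with scallop, and the mean of 105 reached 1 TPM. Of these 23 rose and 26 fell, against 29.1% and 14.5% of the 39381 transcripts tested. Transcript usage asks whether a transcript changed differently from the others of its gene. Of 29 members with at least 2 such transcripts 8 passed limma diffSplice, against 23.2% of the 9382 genes tested, and 5 did without wild-type replicate 3. A second test, on the share of each transcript against the rest of its gene, was chosen after seeing the data, since diffSplice called more unchanged genes than its threshold allows in simulated data. It was passed by 7 members, against 13.1% of genes. The 6 that passed both were IAA9, IAA16, IAA26, ARF4, AFB1 and IAA4. The diffSplice call of IAA4 was lost in 5 of the 6 fits without 1 library, kept only without sme1 replicate 1, and with log2(TPM + 0.1) (adjusted p = 0.0751). TPM of single transcripts rest on how kallisto divides reads among overlapping models, so these are estimates.

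**Figure D3:**
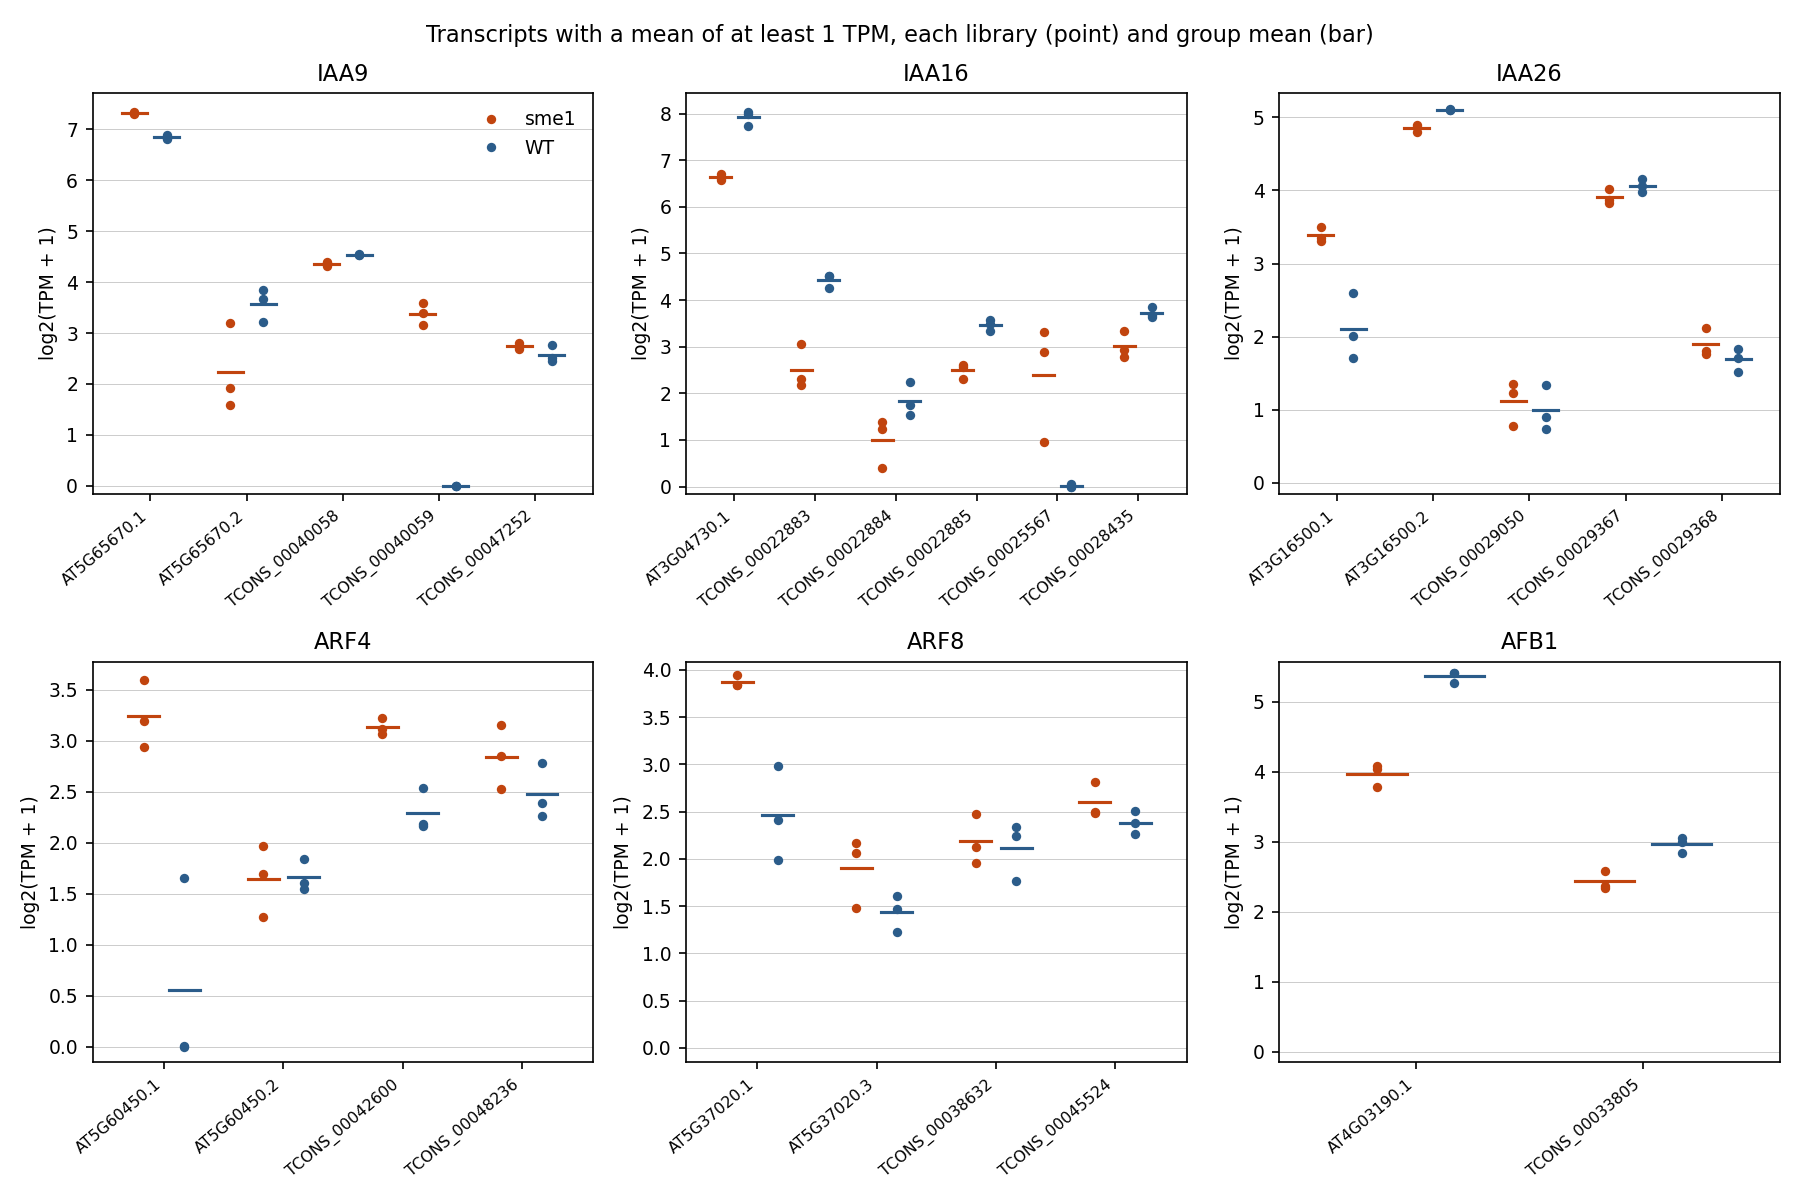
Transcripts whose mean reached 1 TPM in IAA9, IAA16, IAA26, ARF4, ARF8 and AFB1 as log2(TPM + 1), with a point per library and a bar for the group mean, sme1 left of wild type. In IAA9 transcript TCONS_00040059 is near 8 to 11 TPM in sme1 and at about 0 in wild type.

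In IAA9 the assembled transcript TCONS_00040059 was at 7.93, 11.03 and 9.44 TPM in sme1, was listed at 0 in wild-type replicates 1 and 3 and was at 1.19e-06 TPM in replicate 2. AT5G65670.2 was at 8.18, 2.79 and 2.00 TPM in sme1 and 11.6, 13.4 and 8.34 TPM in wild type (diffSplice adjusted p = 6.15e-09 for the gene, share test 0.00176). The main transcript, AT5G65670.1, held 79.9% of the gene's TPM in sme1 and 74.7% in wild type. The first 2 transcripts both use the downstream of 2 acceptor sites of an intron, 6 bases apart, and begin at different places, at 26253523 and 26253947 on chromosome 5. The acceptor region is shown with both AG in capitals.
IAA9 acceptors (chr5:26256076-26256105, plus strand): ctggtgatattgcAGctgcAGctccgagag
Use of the upstream acceptor was 92.4% in sme1 and 92.4% in wild type (limma adjusted p = 0.987).

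In IAA16 TCONS_00025567 was at 6.41, 8.91 and 0.949 TPM in sme1 and at 0.0360, 0 and 0 TPM in wild type (diffSplice adjusted p = 7.35e-07 for the gene, share test 0.0236). TCONS_00022883 was at 3.92, 3.52 and 7.33 TPM in sme1 and 22.0, 21.8 and 18.1 TPM in wild type. Both models retain the same intron, whose retained share was 8.43% in sme1 and 7.16% in wild type (limma adjusted p = 0.576). In IAA26, whose gene level did not pass the test, AT3G16500.1 was at 9.21, 10.3 and 8.89 TPM in sme1 and 5.03, 3.03 and 2.28 TPM in wild type, with no overlap. AT3G16500.2, the main transcript, was at 26.9, 28.3 and 28.6 TPM in sme1 and 33.5, 33.2 and 33.3 TPM in wild type (gene diffSplice adjusted p = 0.000255, share test 0.0322).

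In ARF4 the transcript AT5G60450.1 was at 6.67, 11.1 and 8.18 TPM in sme1 and at 0.00884, 3e-09 and 2.15 TPM in wild type (gene diffSplice adjusted p = 0.000469, share test 0.0441). It held 34.8% of the gene's TPM in sme1 and 6.26% in wild type. In ARF8 the transcript AT5G37020.1 was at 13.3, 13.3 and 14.4 TPM in sme1 and 4.30, 6.90 and 2.98 TPM in wild type, which passed diffSplice (adjusted p = 0.00699) and missed the share test (adjusted p = 0.0935). In AFB1 the main transcript AT4G03190.1 fell more than the intron-retaining TCONS_00033805. AT4G03190.1 was at 12.7, 15.9 and 15.4 TPM in sme1 and 41.7, 37.6 and 41.5 TPM in wild type, and TCONS_00033805 at 4.07, 4.18 and 4.99 TPM in sme1 and 6.96, 6.19 and 7.34 TPM in wild type (gene diffSplice adjusted p = 0.00807, share test 0.029). In IAA4 the intron-retaining TCONS_00038943 held 9.23% of the gene's TPM in sme1 and 5.34% in wild type (gene diffSplice adjusted p = 0.0338, share test 0.0391).

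Splicing events were compared as the share of transcripts with the event. None of 45 retained introns in 26 members passed limma at an adjusted p under 0.05, against 5.59% of the 16046 introns tested (4.56% with a higher share), and at an unadjusted p under 0.05 there were 7 with a higher and 2 with a lower share in sme1. The smallest adjusted p, 0.0502, belonged to an intron of IAA18 of 203 bases, retained at 11.9% ± 4.21 in sme1 and 4.06% ± 1.09 in wild type (SD, n = 3 each). The intron of 110 bases in AFB1 was retained at 23.2% ± 2.08 in sme1 and 14.5% ± 0.468 in wild type (limma adjusted p = 0.0661). With an offset of 0.5 TPM in place of 0.1 TPM, 6 introns passed, 2 of IAA18 and 1 each of AFB1, IAA4, ARF4 and IAA6, and with at least 5 TPM per event 2 did, in IAA18 and AFB1. Of 14 alternative 3' sites none passed (1 higher and 1 lower at an unadjusted p under 0.05, against 0.441% of all passing), nor did any of 5 alternative 5' sites (0 at an unadjusted p under 0.05, against 0.691%). No skipped exon of a member could be tested.

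Other genes of the pathway were taken from lists by name. Many SAUR genes are rapidly induced by auxin. The 17 listed here are a part of that family, and 15 of the 16 tested fell. The median log2 change of the 16 was -0.81, which is -1.03 against the median gene. SAUR15 was at 3.72, 4.45 and 4.03 TPM in sme1 and 18.4, 21.3 and 14.9 TPM in wild type (-1.91, limma adjusted p = 5.19e-05). SAUR22, SAUR68 and SAUR23 had changes of -1.46, -1.92 and -0.97, and SAUR21 (-0.40, limma adjusted p = 0.171) was the 1 not called on the deposited values. SAUR68 here is AT1G29490, near the floor in sme1 at 0.0697, 0 and 0.269 TPM. RefSeq gives that symbol to AT1G29510, listed here as SAUR67 (-0.57). The SAUR19 to SAUR24 and SAUR61 to SAUR68 clusters hold near-identical copies, so single values there are uncertain. The 17 listed summed to between 271 and 327 TPM in sme1 and between 481 and 615 TPM in wild type, without overlap.

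**Figure D4:**
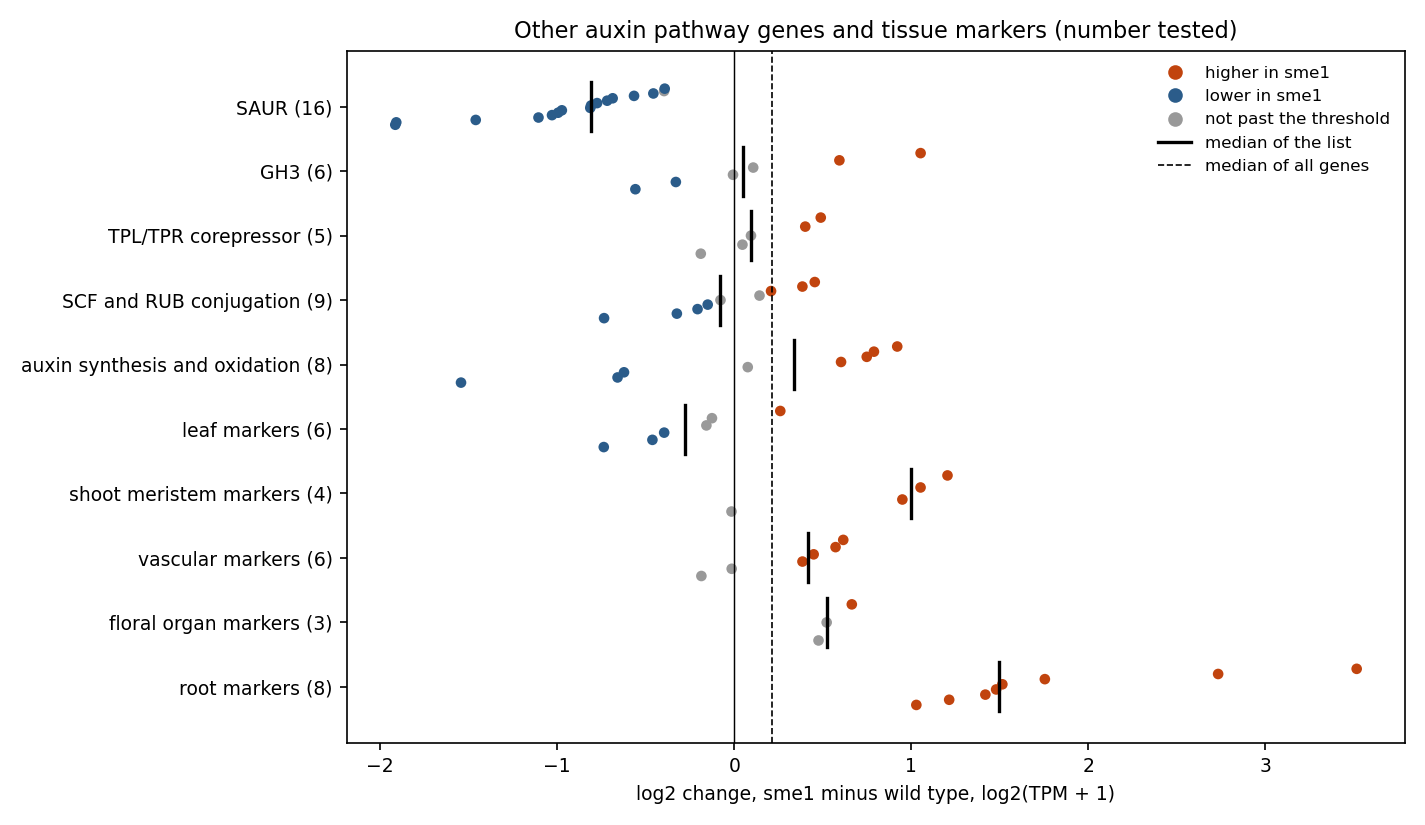
Log2 change, sme1 minus wild type on the log2(TPM + 1) scale, of each tested gene of 5 other auxin lists and 5 marker lists, with the median of each list as a bar and the median of all genes as a dashed line. The SAUR genes all lie below 0 and the root markers all lie above 1.

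The GH3 genes, whose enzymes conjugate auxin to amino acids, went both ways, with 2 of 6 tested higher, GH3.9 (1.05) and GH3.17 (0.59), and 2 lower, GH3.3 (-0.56) and GH3.2 (-0.33). The call of GH3.2 was lost in each fit without 1 library, which left 1 lower. Of 5 genes for the TPL/TPR corepressors, which Aux/IAA proteins recruit, TPR4 rose by 0.49 (limma adjusted p = 0.00117) and TPR3 by 0.40 (limma adjusted p = 0.00838), and TPR3 lost its call after either other scaling. TPL was at 61.8 TPM in sme1 and 70.8 TPM in wild type and did not pass (-0.19), but was called lower after either other scaling. Of 9 genes for SCF subunits and for conjugation of the ubiquitin-like protein RUB, 3 rose and 4 fell (2 without sme1 replicate 2 or wild-type replicate 1 or 2). RCE1, the RUB-conjugating enzyme, was at 150, 145 and 146 TPM in sme1 and 257, 252 and 229 TPM in wild type (-0.74, limma adjusted p = 9.07e-05). ECR1 fell by 0.32, while AXR1, its partner in activating RUB, rose by 0.38 and CAND1, which binds free cullin, rose by 0.45 (limma adjusted p = 0.00127, 0.00102 and 0.00193).

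Of 8 tested genes of auxin synthesis and oxidation 4 rose and 3 fell (2 and 3 after rescaling, 0 and 4 after quantile normalization). Without sme1 replicate 1 or 3 or wild-type replicate 2 only 2 were higher, and without sme1 replicate 1 or wild-type replicate 1 only 1 was lower, YUC8. YUC8, a flavin monooxygenase gene of auxin synthesis induced by shade and warmth, was at 1.12, 1.17 and 1.03 TPM in sme1 and 6.29, 5.86 and 3.64 TPM in wild type (-1.54, limma adjusted p = 0.000352). YUC2 fell by 0.66, YUC6 rose by 0.60 and the auxin dioxygenase gene DAO1 rose by 0.75 (limma adjusted p = 0.022, 0.00177 and 0.00914), with the calls of YUC6 and DAO1 lost after quantile normalization and that of YUC2 in 4 of the 6 fits without 1 library. Of the 5 lists together 11 genes rose and 24 fell, beside 9505 higher and 4024 lower of the 20100 genes tested. Of the 24 that fell 15 were SAUR genes, and the other 4 lists held 11 that rose and 9 that fell.

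Some members share ground with other genes, and no source used here says whether strand was used in quantification. IAA3 overlaps AT1G04230 on the opposite strand by 1480 bases, a gene at 11.7 TPM in sme1 and 13.1 TPM in wild type. AFB3 overlaps AT1G12810 by 204 bases (45.3 TPM in sme1 and 36.0 TPM in wild type) and AT1G04977 by 638 bases (2.38 TPM in sme1 and 0.412 TPM in wild type), both on the opposite strand. ARF7 overlaps the far more abundant CPN20 by 254 bases (586 TPM in sme1 and 452 TPM in wild type). AFB1 overlaps AT4G04455 by 423 bases on the opposite strand, a gene at 4.40 TPM in sme1 and 10.7 TPM in wild type. IAA34, at 0.810 TPM in sme1 and 1.45 TPM in wild type, overlaps AT1G15060 by 156 bases on the same strand. That gene was at 19.2 TPM in sme1 and 15.8 TPM in wild type. The values of these members are less certain for it.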

How the data were processed

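The authors deposited TPM per gene and per transcript for 6 libraries and the transcript annotation. Per the submitters' processing notes kallisto 0.43.0 and STAR 2.5.2b were used, with no roles stated, and the genome build is not given. Of the 141522 nuclear introns in the deposited annotation 99.44% had GT or GC and AG at their ends on TAIR10.1, and all 94 Araport11 transcripts of members have the introns of a RefSeq transcript. Members were matched by locus, and the members and all lists were chosen with earlier results of these data known.

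Genes averaging 1 TPM or more were fitted as log2(TPM + 1) by limma 3.58.1 (R 4.3.3; trended empirical Bayes, no covariate), adjusted by Benjamini-Hochberg over all genes at a threshold of 0.05. This scale understates the change of low genes. Transcripts were fitted likewise, and usage with diffSplice (Simes p per gene). The share test ran limma on log2((TPM + 1)/(TPM of the gene's other tested transcripts + 1)). Events were built from the annotation; R and S are the summed TPM of transcripts with and without an event, tested as log2((R + 0.1)/(S + 0.1)) where R + S averaged at least 2 TPM and the share lay between 0.02 and 0.98. The gene fit, diffSplice, the share test and the retained-intron test were tried on simulated data, and the other steps were not. Median-of-ratios scaling, called rescaling in the results, divided each library by the median ratio of its genes to their geometric means. Other filters, pseudocounts and left-out libraries were also tried. TPM total 1000000 in each library, so the depth is unknown and no interval or floor from counts is given. Values were printed per library for members past the threshold with a log2 change of at least 0.8 in size, the 5 receptors and the first 6 members by usage; IAA9, ARF7 and ARF19 were given per library, and SAUR21, TPL and the GH3.2 and YUC2 checks were named, after their values were seen. Of other lists up to 4 genes with the smallest adjusted p were named.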

Additional observations from a re-analysis of the deposited data

How the results depend on the processing

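The choice of scaling moved most. Over all genes 9505 were higher and 4024 lower, against 6674 lower after median-of-ratios scaling and 6116 higher and 7293 lower after quantile normalization; the median log2 change was 0.22, 0.00 and -0.06 under the 3. In the same order of the other 2 scalings, members higher were 9 and 11, members lower 23 and 21, ARF genes higher 6 and 6 and lower 4 and 3, and genes of the other auxin lists higher 7 and 6. Aux/IAA genes higher were 2 and TIR1/AFB genes lower were 4 after median-of-ratios scaling. Signs turned after median-of-ratios scaling for IAA10 (-0.16), IAA11 (-0.029), IAA17 (-0.18), AFB5 (-0.20), TPR1 (-0.18), TPR2 (-0.14), ASK1 (-0.030), CUL1 (-0.093), GH3.6 (-0.13) and TAR2 (-0.12), and after quantile normalization for IAA10 (-0.33), IAA17 (-0.087), ARF17 (-0.14), AFB5 (-0.050), TPR1 (-0.10), TPR2 (-0.036) and TAR2 (-0.40). The cause was not tested.

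Leaving out 1 library, 27 of the 30 calls among members were kept in all 6 fits. ARF genes lower ranged from 1 to 2 and members past diffSplice from 5 to 10. Changes ranged from -0.036 to 0.13 for IAA10, from -0.051 to 0.13 for IAA17, from -0.043 to 0.015 for IAA26, from -0.0039 to 0.073 for AFB5 and from -0.069 to 0.079 for GH3.5. With a mean of at least 5 TPM 5 members passed diffSplice. Retained introns with a higher share numbered 6 with an offset of 0.5 and 2 with R + S of at least 5 TPM. Same-numbered libraries of sme1 and wild type correlated at 0.0168, 0.0562 and 0.0322 in their deviations, each best with its own number, which is a hint from the data and not from the design; with the replicate number as a block, 16 members were higher and 15 lower and 8 passed diffSplice. Depth is unknown.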
